A study of Helianthus annuus with 15 samples.

Results

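The transcriptome of the sunflower (Helianthus annuus) axil was set against that of the stem, using 3 axil and 3 stem libraries out of 15 mRNA libraries from 5 tissues. The 6 libraries were taken by the tissue in their labels, without regard to any measured value. Besides axil and stem, the series holds 3 libraries each of root, leaf and flower, which entered the model for its estimate of spread and are given below where they describe a gene. The labels give the tissue of each library and no cultivar, age, treatment or number of plants. Whether libraries of a tissue come from different plants is not said. The p-values therefore set the difference against the spread among libraries only, and that spread may be technical.

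Where a leaf base joins the stem, the upper angle is called the axil. Axillary meristems form there, and each can stay dormant as a bud or grow out into a branch, under the influence of auxin, cytokinin, strigolactone and sugar supply. The stem carries the vascular strands and supporting fibres, whose cells lay down thickened, often lignified walls. A dissected axil borders on stem tissue. In bulk tissue, fewer cells of a type and less RNA per cell cannot be told apart.

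Values are FPKM (fragments per kilobase of gene and per unit of library depth), as deposited. The table lists 63411 identifiers, and the 34586 with at least 1 FPKM in at least 3 of the 15 libraries were tested. The steps between FPKM values imply 12929290, 12094852 and 12162876 counted reads in the axil libraries and 14178920, 12290656 and 12275617 in the stem libraries. A count of 3 reads on 1000 nt then equals 0.212 to 0.248 FPKM, a limit that covers counting error only. The files pair 1 identifier with a gene name, NAC83, and none (0) matched the gene table of the reference assembly, so functions of the other genes are not given. For the same reason the tissue labels could not be checked against marker genes.

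The first question was how many genes differ between axil and stem, and in which direction. Axil exceeded stem in 3286 genes (9.50% of those tested), and 3702 genes (10.7%) were lower in axil, together 20.2%. Calls required an adjusted p under 0.05 (limma, Benjamini-Hochberg over all genes tested) and a difference of at least 1 in log2(FPKM + 1), a scale on which low genes appear to change less than they do. Most differences were moderate. The median log2 difference of axil minus stem was 1.54 among the genes higher in axil, with 80% of them between 1.08 and 3.01, and -1.64 among the genes lower in axil, with 80% between -3.13 and -1.10. Over all genes tested the median was 0.07.

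A log2 difference of at least 3 was found in 331 genes higher in axil and in 437 lower in axil. A difference of at least 5 was found in 35 and 51. Axil and stem libraries did not overlap in 3174 of the genes called higher and 3559 of those called lower. Without regard to calls, 28.5% of the genes tested had all 3 axil libraries above all 3 stem libraries, and 22.0% had all of them below. Which direction held more calls depended on the scaling and the pseudocount: 53.7% of the calls were higher in axil when libraries were scaled to the same sum of FPKM, 50.7% with a pseudocount of 0.1 and 50.3% with voom on recovered reads, against 47.0% as deposited. It also depended on the fold threshold: by adjusted p alone, 7651 genes were higher in axil and 6290 lower.

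**Figure D1:**
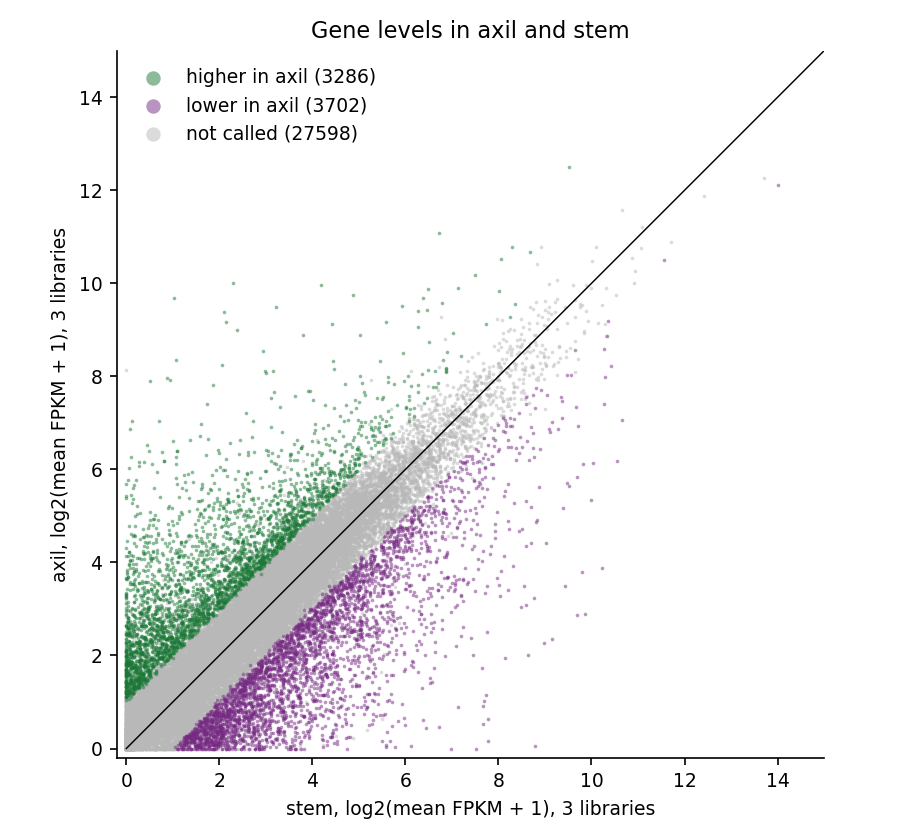
Mean level of each of the 34586 genes tested in axil (vertical axis) and stem (horizontal axis), as log2(mean FPKM + 1) over 3 libraries each, with the line of equal levels. Genes called higher in axil (3286) lie above the line and genes called lower (3702) below it, and most called genes lie within 3 log2 units of it.

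The genes called are described next by how abundant they are. Among the 924 genes with a mean above 100 FPKM over all 15 libraries, 85 (9.20%) were higher in axil and 154 (16.7%) lower. In the band from 5 to 20 FPKM the directions were nearly even, with 1321 of 12454 genes (10.6%) higher and 1332 (10.7%) lower. Of the calls in the top band, 35.6% were higher in axil, against 47.0% of the calls over all genes. Without Axil 1 the top band held 97 higher and 175 lower calls, 35.7% higher against 47.4% over all genes. The top band held 103 and 135 with libraries scaled to the same sum, 43.3% higher against 53.7% over all genes, and 75 and 183 with median-of-ratios scaling, 29.1% against 41.3%. After quantile normalization it held 111 and 128, and its 46.4% higher was close to the 45.7% over all genes, so the tilt of this band was not seen under that scaling. These bands were set after the data were seen.

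The most abundant transcripts also took a smaller share of the total in axil. The 10 highest genes of each library held 5.70%, 5.74% and 5.41% of its summed FPKM in axil, against 7.24%, 8.78% and 7.66% in stem. All axil libraries lay below all stem libraries, with means of 5.62% ± 0.179 in axil and 7.89% ± 0.796 in stem (SD, n = 3 each; exact permutation test, two-sided, p = 0.1, the smallest that 3 against 3 allows; adjusted p = 0.3 over 6 measures per library). Without Axil 1 the groups also did not overlap (exact permutation test, two-sided, p = 0.2, the smallest that 2 against 3 allows). The 100 highest genes held 16.1%, 17.5% and 17.7% in axil and 17.5%, 21.1% and 19.2% in stem, and these ranges overlapped (exact permutation test, two-sided, p = 0.2). The number of genes at 1 FPKM or more was 28460, 28171 and 27588 in axil and 27960, 27754 and 28236 in stem, and these ranges overlapped (exact permutation test, two-sided, p = 0.8).

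The genes called higher in axil held 12.9%, 17% and 21.2% of the reads of Axil 1, Axil 2 and Axil 3, against 4.75%, 4.65% and 3.53% in Stem 1, Stem 2 and Stem 3. The genes called lower held 6.25%, 4.38% and 3.48% in the axil libraries and 19.4%, 18.5% and 22.9% in the stem libraries. These shares describe genes chosen for their difference. Among axil libraries, Axil 1 had the smallest share of genes higher in axil and the largest share of genes lower in axil.

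Levels in root, leaf and flower were not part of the contrast, and they differed between the groups of genes called. Of the 3286 genes higher in axil, 53.7% had root as the highest of these 3 tissues, 29.6% leaf and 16.6% flower. Of the 3702 genes lower in axil, 62.1% had flower as the highest, 20.04% root and 17.8% leaf. Over all genes tested the shares were 40.6% root, 23.4% leaf and 36.0% flower. Genes called higher in axil thus lay toward root and leaf in levels outside the contrast, and genes lower in axil toward flower. Without Axil 1, root was the highest for 55.2% of the genes higher in axil and flower for 60.5% of the genes lower.

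Median levels showed the same. For genes higher in axil, the median over genes of the tissue mean was 11.4 FPKM in axil and 2.02 in stem, and 6.999 in root, 5.09 in leaf and 2.56 in flower. For genes lower in axil it was 2.30 FPKM in axil and 12.4 in stem, and 1.86 in root, 2.67 in leaf and 6.82 in flower. Over all genes tested these medians were 5.32 in axil, 5.13 in stem, 4.85 in root, 4.61 in leaf and 5.15 in flower. Of the genes higher in axil, 1748 (53.2%) had their highest mean of all 5 tissues in axil, and 928 had it in root. Of the genes lower in axil, 2310 (62.4%) had their highest mean in stem, and 928 had it in flower. The choice of genes raises these shares. None (0) of the genes higher in axil had its highest mean in stem, and none (0) of those lower had it in axil. The shares were not set beside those of all genes tested. The genes lower in axil were also shorter, with a median implied length of 1321 nt, whereas genes higher in axil had a median of 1537 nt and all genes tested 1539 nt.

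**Figure D2:**
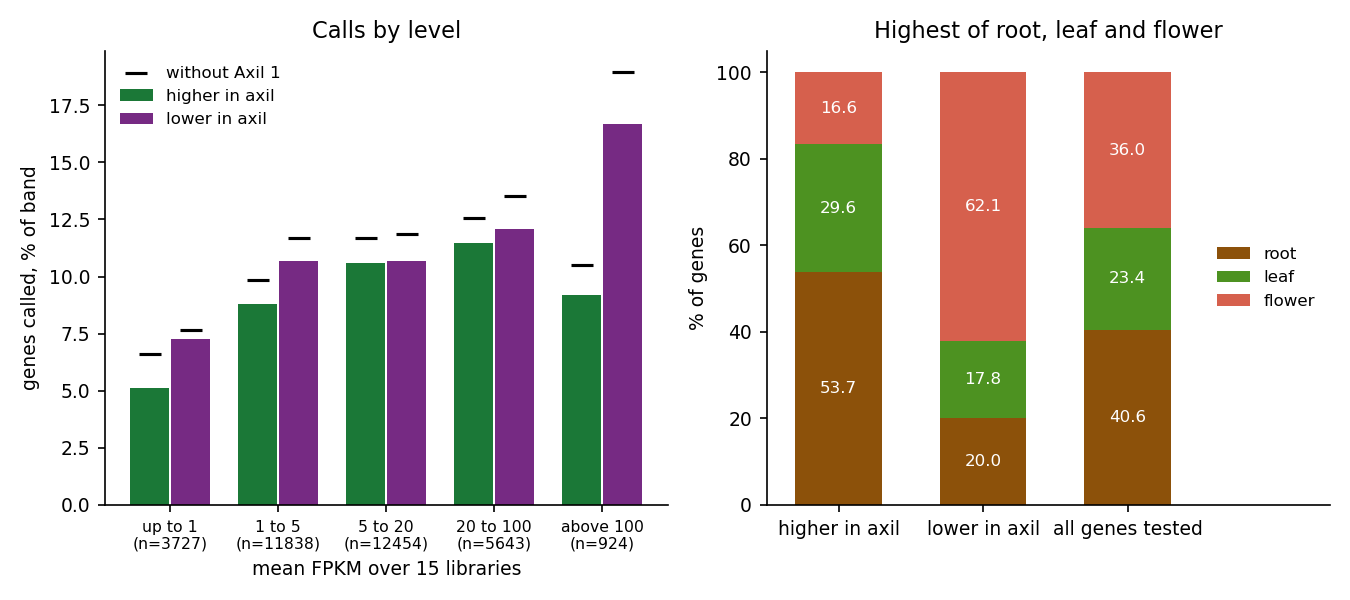
Left, percentage of genes called higher and lower in axil by mean FPKM over 15 libraries, with dashes for the calls without Axil 1: above 100 FPKM, 9.20% were higher and 16.7% lower. Right, the tissue with the highest mean among root, leaf and flower, which is root for 53.7% of genes higher in axil and flower for 62.1% of genes lower in axil.

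Some genes were on in one tissue and off in the other, which was taken as a mean of at least 10 FPKM in the first and under 1 FPKM in each library of the second. There were 151 genes on in axil and off in stem, and 112 on in stem and off in axil. Of the 151, 146 reached 1 FPKM in each axil library, and of the 112, 104 did so in each stem library. Their median level in the tissue where they were on was 17.3 FPKM in axil and 17.7 FPKM in stem. Of the 151 genes on in axil and off in stem, 63 averaged 10 FPKM or more in root, 39 in leaf and 12 in flower, and 17 were under 1 FPKM on average in all of root, leaf and flower. Of the 112 genes on in stem and off in axil, 37 reached that mean in flower, 14 in leaf and 3 in root, and 95 had a root mean under 1 FPKM. The share of all identifiers at these levels in root, leaf and flower was not counted. No lean toward a tissue is therefore read from these counts.

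The rule uses a mean, so a single library can carry a gene. The 1 gene of the 151 that was not called, singled out here after its values were seen, stood at 27.0, 0.127 and 812 FPKM in Axil 1, Axil 2 and Axil 3 and at 0 in all stem libraries. Of the 112 genes on in stem, 103 were called, and most of the others were carried by Stem 3 alone.

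Axil 1, the axil library nearest to stem, moved the count of genes on in stem more than any other library did. Without Axil 1, 191 genes were on in axil and off in stem, and 256 were on in stem and off in axil. The second count thus passed the first, which was not so with all 6 libraries. Of the 256 genes, 144 had at least 1 FPKM in Axil 1, and they are counted only because that library was not asked to be under 1 FPKM. Their median was 2.48 FPKM in Axil 1, against a median stem mean of 18.8, and the highest had 54.3 FPKM in Axil 1. At least 10 FPKM was reached in Axil 1 by 17 of the 256. Leaving out Axil 3 also put the counts in the other order, with 102 genes on in axil and 117 on in stem. Leaving out Axil 2 or any stem library kept more genes on in axil than on in stem. Leaving out a library eases the limit of 1 FPKM for its own tissue. It can therefore only raise or keep the count of genes on in the other tissue. The order of the 2 counts is tilted in this way by the rule, and no stability or reversal is read from it. The smallest count of genes on in stem, 76, was found without Stem 3, and 180 were then on in axil.

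**Figure D3:**
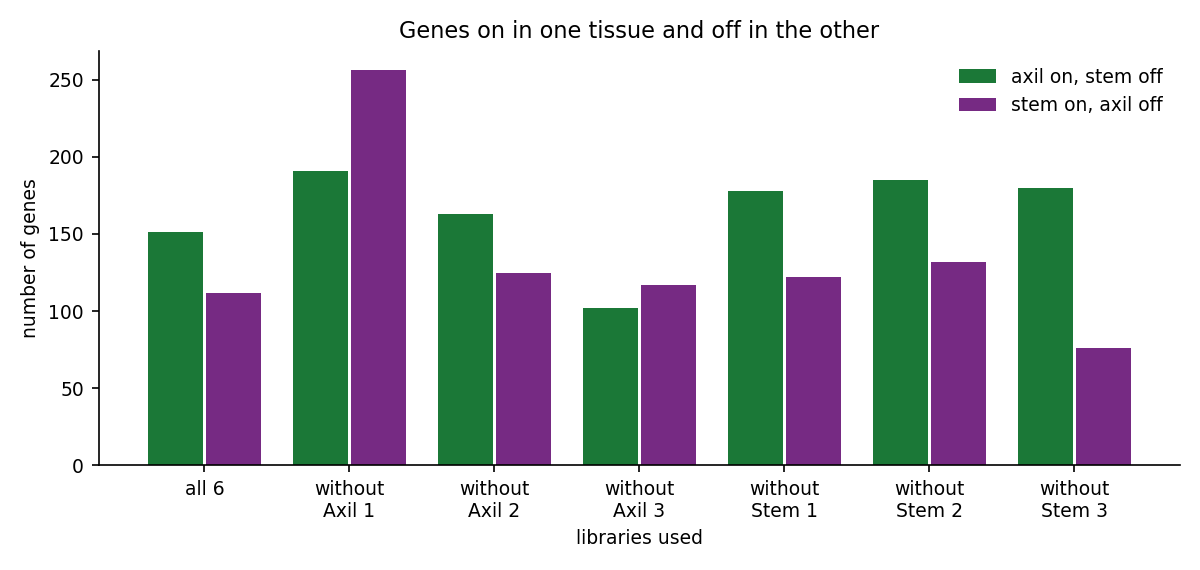
Number of genes on in axil and off in stem, and on in stem and off in axil, with all 6 libraries and with each library left out. The bar for genes on in stem stands at 256 without Axil 1 and between 76 and 132 in the other settings.

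The whole comparison was then repeated without Axil 1. From the remaining 14 libraries, 3678 genes (10.6%) were higher in axil and 4082 (11.8%) lower, 22.4% together. This is more than with Axil 1, a rise favoured by picking out the axil library nearest to stem. Leaving out Axil 2 instead gave 3047 higher and 3412 lower, and leaving out Axil 3 gave 2940 and 3049. Without Axil 1, a log2 difference of at least 3 was found in 466 genes higher in axil and 574 lower. The medians of the genes called were then 1.59 and -1.70. The genes overlapped widely. Of those higher in axil, 3046 were called both with and without Axil 1, which is 92.7% of the calls with it and 82.8% of the calls without it. Of those lower in axil, 3528 were called both ways, 95.3% and 86.4% of these lists. No gene (0) was called in opposite directions. There were 632 genes called higher and 554 called lower only without Axil 1, and 240 and 174 only with it.

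The median over genes of the SD of log2(FPKM + 1) was 0.216 over the 3 axil libraries and 0.249 over the 3 stem libraries. Between pairs of axil libraries it was 0.152 for Axil 1 and Axil 2, 0.157 for Axil 2 and Axil 3 and 0.226 for Axil 1 and Axil 3. Axil 2 thus lay about as close to Axil 1 as to Axil 3, and Axil 1 and Axil 3 were the farthest apart. Set against the stem mean, 6763 genes differed at least 2-fold on the log2(FPKM + 1) scale in Axil 1, 8257 in Axil 2 and 9502 in Axil 3. Among stem libraries, Stem 3 lay farthest from the axil mean, with 9869 such genes, against 7741 in Stem 1 and 7663 in Stem 2.

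To see where each library lies with values that did not choose the genes, each axil and stem library was left out in turn, genes were called from the other 14, and the left-out library was placed between the stem mean (position 0) and the axil mean (position 1) of the others on the log2(FPKM + 1) scale. Axil 1 lay at a median position of 0.706 over 3678 genes higher in axil, with quartiles of 0.467 and 0.925, and of 0.719 over 4082 genes lower in axil. Axil 2 lay at 0.988 and 1.00, and Axil 3 at 1.11 and 1.19. In Axil 1, 28.1% of the genes higher in axil and 21.5% of the genes lower in axil were nearer to the stem mean than to the axil mean, against 3.74% and 2.20% in Axil 2 and 7.82% and 1.80% in Axil 3. Axil 1 was thus displaced toward stem in both directions. Since Axil 1 was picked out as the axil library nearest to stem, its position restates that choice and is no separate evidence. The size of the displacement depended on the pseudocount: its median positions were 0.767 in genes higher in axil and 0.658 in genes lower with a pseudocount of 0.1, and 0.626 and 0.756 with a pseudocount of 5.

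By their medians the stem libraries lay closer to 0. Left-out Stem 1 lay at 0.0937 in genes higher in axil and 0.0468 in genes lower, Stem 2 at 0.0906 and 0.158, and Stem 3 at -0.0427 and 0.0327. Among stem libraries, Stem 2 had the largest shares of genes nearer to the axil mean than to the stem mean. They were 13.96% of the genes higher in axil and 18.8% of the genes lower, the second not far below the 21.5% of Axil 1. In Stem 1 these shares were 4.46% and 7.51%, and in Stem 3 5.09% and 9.37%. With a pseudocount of 1, the displacement of Axil 1 varied little with the size of the difference. Over genes with a log2 difference of at least 4 it lay at 0.658 in 159 genes higher in axil and 0.669 in 217 genes lower. The median position of Axil 1 was also taken by which of root, leaf and flower was the highest. Among genes higher in axil it was 0.691 where root was the highest, 0.749 where leaf was and 0.685 where flower was. Among genes lower in axil these medians were 0.671, 0.652 and 0.749, so the displacement was smallest there where flower was the highest. Differences between these medians were not tested. Whether a share of stem tissue in Axil 1, a different stage or another source gives this position was not tested.

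**Figure D4:**
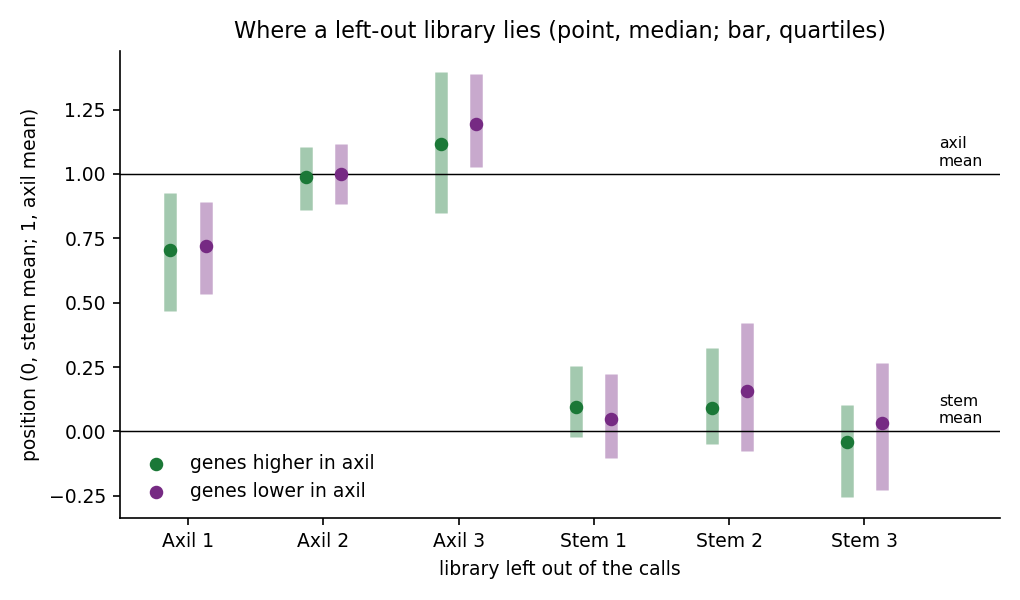
Position of each library, left out of the calls, between the stem mean (0) and the axil mean (1) of the other libraries, as median and quartiles over the genes called. Axil 1 lies at 0.706 and 0.719, Axil 2 close to 1, Axil 3 above 1 and the stem medians between -0.0427 and 0.158.

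Single genes are given by identifier, at most 2 in each direction. The first set holds those with the smallest limma p among called genes averaging 20 FPKM or more in the higher tissue and no overlap between axil and stem libraries, 1056 genes higher and 1333 lower. The product of these genes is not named in the files.

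HannXRQ_Chr15g0476591 on chromosome 15 had 25.1, 22.8 and 31.7 FPKM in the axil libraries, against 0.128, 0 and 0 in stem. Its stem level rests on 2 reads, both in Stem 1, and it stayed under 0.21 FPKM in each root, leaf and flower library. The log2 difference was 4.71 ± 0.15 (SE; limma adjusted p = 3.67e-09), and 4.75 without Axil 1. All axil libraries, Axil 1 included, were high. By the values above, the gene was at or near its detection limit in every library other than those of the axil.

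HannXRQ_Chr16g0516461 on chromosome 16 had 51.5, 59.8 and 81.2 FPKM in axil, against 0.0691, 0.0398 and 0 in stem, where 3 reads were counted in all. Leaf was intermediate, at 3.90, 6.65 and 8.59 FPKM, while root and flower libraries stayed at or under 0.299 FPKM. The log2 difference from stem was 5.95 ± 0.23 (SE; limma adjusted p = 1.65e-08), and 6.09 without Axil 1. Its stem mean of 0.0363 FPKM was 0.0199 without Stem 1 and 0.0545 without Stem 3.

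HannXRQ_Chr12g0359551 on chromosome 12 was lower in axil, with 5.80, 4.79 and 2.42 FPKM, against 117, 179 and 139 in stem. The axil was also below leaf, where it had 27.7, 31.3 and 26.7 FPKM, and below flower, where it had 8.80, 10.4 and 9.59. Root held at most 0.0738 FPKM. The difference of axil minus stem was -4.81 ± 0.22 in log2 (SE; limma adjusted p = 6.13e-08), and -5.01 without Axil 1.

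HannXRQ_Chr04g0098631 on chromosome 4 had 0.884, 0 and 0.171 FPKM in axil, against 84.2, 61.6 and 113 in stem. The axil libraries held 11, 0 and 2 reads, so most of what was counted in axil lay in Axil 1, and the axil mean of 0.352 FPKM was 0.0855 without it. Flower stood at 3.23, 4.09 and 3.07 FPKM, and root and leaf libraries reached at most 1.27. The log2 difference was -6.02 ± 0.28 (SE; limma adjusted p = 6.13e-08), and -6.29 without Axil 1.

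The second set shows genes whose call depended on Axil 1: called without it, not called with it, at least 20 FPKM in the higher tissue and no overlap of Axil 2 and Axil 3 with stem, taken by the largest difference. There were 172 such genes higher in axil and 161 lower. HannXRQ_Chr14g0445251 on chromosome 14 had 0.859 FPKM in Axil 1, 28.0 in Axil 2 and 36.3 in Axil 3, against 1.57, 0 and 3.10 in stem. Axil 1 was within the stem range. Its log2 difference was 3.91 ± 0.67 (SE; limma adjusted p = 0.00078) without Axil 1 and 2.52 (limma adjusted p = 0.0522) with it. Outside the contrast it was found mainly in root, at 18.1, 3.71 and 2.95 FPKM.

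HannXRQ_Chr11g0334941 on chromosome 11 had 1.07 FPKM in Axil 1, 12.8 in Axil 2 and 34.7 in Axil 3, against 6.61, 0.672 and 1.12 in stem. The axil and stem means were 23.7 without Axil 1 and 2.80, and the stem mean was 0.897 without Stem 1. The log2 difference was 2.88 ± 0.74 (SE; limma adjusted p = 0.00895) without Axil 1 and 1.74 (limma adjusted p = 0.142) with it. Root again held it, at 13.4, 19.1 and 5.35 FPKM.

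HannXRQ_Chr14g0454531 on chromosome 14 showed Axil 1 beyond the stem libraries. It had 90.8 FPKM in Axil 1, 5.50 in Axil 2 and 2.12 in Axil 3, against 29.7, 53.2 and 31.2 in stem. The log2 difference was -3.07 ± 0.49 (SE; limma adjusted p = 0.000483) without Axil 1 and -1.62 (limma adjusted p = 0.178) with it. Root was the tissue with the highest level, at 134, 65.0 and 178 FPKM.

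HannXRQ_Chr15g0482401 on chromosome 15 had 42.8 FPKM in Axil 1, 18.3 in Axil 2 and 6.71 in Axil 3, against 99.9, 191 and 68.7 in stem. Here all axil libraries were below all stem libraries, and the spread among axil and leaf libraries was wide, with 0.505 FPKM in Leaf 2 and 49.6 in Leaf 3. The log2 difference was -3.18 ± 1.10 (SE; limma adjusted p = 0.0385) without Axil 1 and -2.56 (limma adjusted p = 0.059) with it.

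NAC83 (HannXRQ_Chr17g0568801, chromosome 17) belongs to the NAC family of plant transcription factors, whose members act in organ boundaries, vascular development and senescence in other plants such as Arabidopsis. It had 24.8, 40.0 and 67.7 FPKM in Axil 1, Axil 2 and Axil 3, against 1.08, 4.13 and 1.87 in stem. The groups were far apart, and Axil 1 was the lowest of the axil libraries. The log2 difference of axil minus stem was 3.74 ± 0.43 (SE; limma adjusted p = 3.52e-05) with all libraries and 4.08 ± 0.45 (SE; limma adjusted p = 3.02e-05) without Axil 1, where the axil mean was 53.9 FPKM in place of 44.2. Root was like axil in level, at 19.2, 54.8 and 48.7 FPKM, while flower had 8.55, 10.3 and 13.6 and leaf 0.770, 0.877 and 1.24. The stem mean of 2.36 FPKM was 1.48 without Stem 2.

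**Figure D5:**
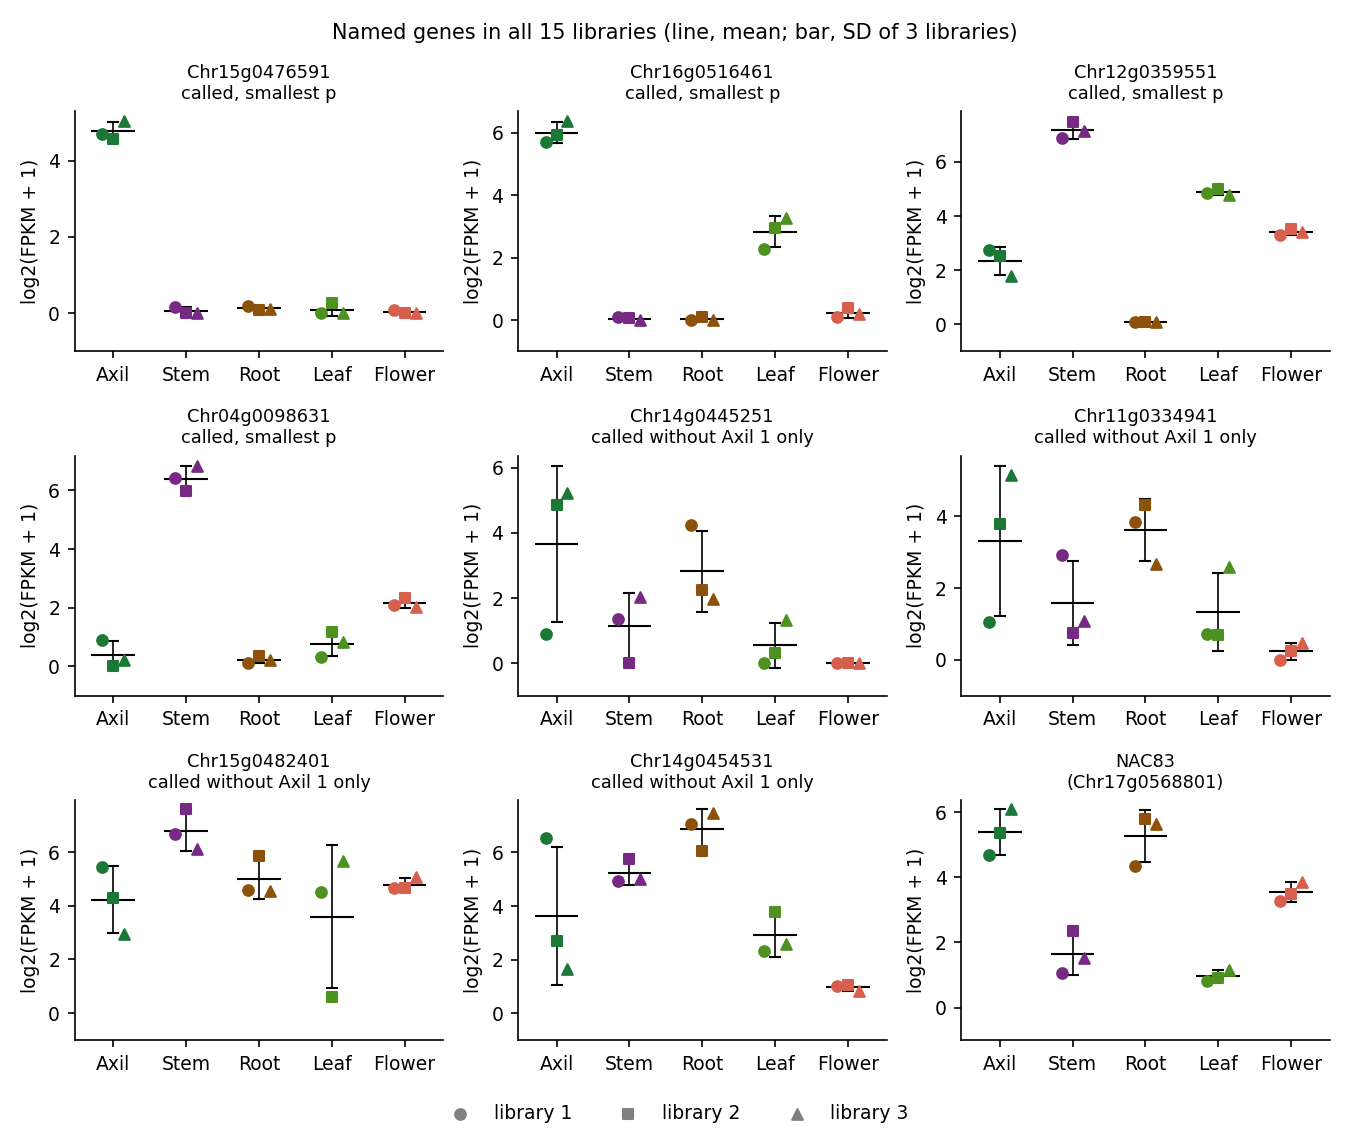
Level of the 9 named genes in all 15 libraries, as log2(FPKM + 1), by tissue, with the mean and SD of 3 libraries and a marker shape for each library number. In the first 4 panels the axil libraries stand together and apart from stem, the next 4 are genes whose call depended on Axil 1, and NAC83 stands at 44.2 FPKM on average in axil and 2.36 in stem.

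Identifiers carry a chromosome number, and the calls were spread over all 17 chromosomes. The share of genes higher in axil ran from 8.08% of 1918 on chromosome 12 to 11.4% of 2148 on chromosome 17. The share of genes lower in axil ran from 9.46% on chromosome 1 to 12.5% on chromosome 12. Chromosome 12 thus held the smallest share higher and the largest share lower, with 155 and 239 genes. It was singled out after the values were seen. Over all chromosomal genes the shares were 9.62% higher and 10.8% lower. Some chromosome must hold each extreme, and whether chromosome 12 departs from the rest was not tested. Without Axil 1 it also held both extremes, at 9.33% and 13.7%. That fit reuses the other 14 libraries and is no separate evidence. On values as deposited, chromosomes 6 and 8 were the ones with more genes higher than lower in axil. The counts were 148 and 130 on chromosome 6 and 182 and 175 on chromosome 8. The direction over all genes depended on the scaling, and counts by chromosome were not made under other scalings.

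Genes with consecutive identifiers tended to carry the same call. Identifiers on a chromosome are numbered in steps of 10, and the number was used as the order, with genes that were not tested passed over. After a gene higher in axil, the next one was also higher in 15.4% of 3161 cases and lower in 7.88%, where 9.62% of chromosomal genes were higher in all. After a gene lower in axil, the next one was lower in 15.6% of 3560 cases and higher in 8.03%, where 10.8% were lower in all. The shares of equal calls were 16.7% and 17% without Axil 1, against 10.8% and 12% of all chromosomal genes called without it. Reads from near-identical neighbouring copies could be split or shared in counting, and their part in these shares was not tested.

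Runs of consecutive identifiers with the same call reached 5 genes at most, in 2 runs higher in axil and 4 lower, found after the data were seen. On chromosome 17, a run of 5 genes higher in axil had mean levels between 1.68 and 3.25 FPKM in axil, between 0.0508 and 0.192 in stem and between 8.51 and 15.1 in root. On chromosome 13, the other run higher in axil had means between 3.55 and 38.6 FPKM in axil and between 0.985 and 8.31 in stem. A run of 5 genes lower in axil, also on chromosome 13, had means between 0.255 and 1.97 FPKM in axil and between 5.15 and 17.2 in stem, with at most 3.46 in leaf, 2.70 in root and 0.835 in flower. The remaining runs lower in axil lay on chromosomes 5, 10 and 16. The genes of the run on chromosome 5 were short, between 298 and 474 nt, and reached a mean of 190 FPKM in stem and 38.8 in axil. All genes of these runs were also called without Axil 1, apart from 1 of the run higher in axil on chromosome 13.

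Outside the chromosomal genes the calls were counted by class of identifier, beside 9.50% higher and 10.7% lower over all genes tested. Of 1383 numbered loci whose identifier carries no chromosome, a class the table does not explain, 109 (7.88%) were higher in axil and 116 (8.39%) lower. Of 234 ENSRNA identifiers, the prefix of noncoding RNA genes, 11 (4.70%) were higher and 19 (8.12%) lower. Unplaced identifiers gave 4 higher and 6 lower of 72. None (0) of 21 MT and 5 CP identifiers, read here as codes for the mitochondrial and chloroplast genomes, was called in limma. By unadjusted p under 0.05 there were also 0 in limma and 0 with voom on recovered reads.

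Reads of the MT class nevertheless took a smaller share in each axil library. They made up 0.0180%, 0.0111% and 0.0139% of the reads in axil, against 0.0282%, 0.0301% and 0.0695% in stem (exact permutation test, two-sided, p = 0.1; adjusted p = 0.3 over 6 measures). These are 2331, 1344 and 1696 reads in axil and 4005, 3697 and 8535 in stem. The groups did not overlap, and Stem 3 was far above the other stem libraries. Libraries were selected by oligo(dT), so these shares count organelle RNA as far as it passed that selection. The shares of the numbered loci without a chromosome, 0.756%, 0.691% and 0.680% in axil and 0.658%, 0.701% and 0.608% in stem, overlapped (exact permutation test, two-sided, p = 0.3). Those of ENSRNA identifiers also overlapped, at 0.0392%, 0.0286% and 0.0351% in axil and 0.0134%, 0.0220% and 0.0394% in stem (exact permutation test, two-sided, p = 0.4).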

How the data were processed

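RNA of the 5 tissues was captured on oligo(dT) beads, fragmented, ligated to adaptors with molecular identifiers (UMI) and amplified by PCR, per the labels' protocols, which do not say whether the UMI were used in counting. The authors deposited 1 FPKM value for each gene and library. The submitters' processing notes name HTSeq 0.6.1. The aligner, the build and the annotation used were not given in the sources used here. The 19 unnamed columns of the table, 16 of which hold values, were not used apart from the pairing of 1 identifier with NAC83.

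The steps between FPKM values gave whole reads, library totals and gene lengths. All 50567 rows above 0 came out whole, within 1e-06 plus 5e-07 per read. Implied lengths were whole within 0.05 nt for 100% of the genes tested, and the recovered reads fell short of the implied totals by at most 0.0248%.

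Axil minus stem was tested as a contrast in limma 3.58.1 (R 4.3.3) on log2(FPKM + 1), with 1 mean per tissue over all 15 libraries and a trended eBayes prior. The fit without Axil 1 kept the filter of all 15 libraries. The procedure was tested on simulated data with independent noise and no displaced library. That test does not cover a library such as Axil 1, and no result here rests on it. Named genes were taken by the rules given with them. Other steps ran in Python 3.11.15 with SciPy 1.17.1, pandas 2.3.3 and, for figures, matplotlib 3.10.9. The comparison, rules and lists were chosen with earlier results of these data known. Gene lists by name matched 0 identifiers and were left out. The alternatives tried were the pseudocount, filter, scaling, variance model, replicate block, fold threshold, voom on recovered reads, the 6 libraries alone and leaving out each library.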

Additional observations from a re-analysis of the deposited data

How the results depend on the processing

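Of 40 recomputed counts of genes higher or lower in axil than stem, 34 stayed within 1.5 times the reported count. A pseudocount of 5 gave 1453 higher and 1878 lower (1761 and 2122 in the fit without Axil 1, beside 3678 and 4082), adjusted p alone 7651 and 6290, and a log2 difference of at least 2 gave 966 and 1237. These settings move counts by construction, through low genes or the threshold. Leaving out 1 library gave 2848 to 3678 higher and 3049 to 4082 lower. With a mean of at least 5 FPKM, 355 genes were on in axil and off in stem and 294 the reverse. Leaving out 1 library gave 102 to 191 and 76 to 256, the last without Axil 1. The share of genes higher in axil with root as the highest of root, leaf and flower was 55.5% with a pseudocount of 0.1, 49.9% with array weights, whose estimation stopped before convergence, and 51.3% to 56.1% with 1 library left out. The share of genes lower in axil with flower as the highest was 57.7% with array weights and 59.1% to 64.4% with 1 library left out. NAC83 and the genes of the first set kept their side of the threshold in all 90 recomputations. Of the second set, HannXRQ_Chr15g0482401 was not called with a pseudocount of 0.1 (log2 difference -3.29). Whether axil and stem libraries of equal number share a plant or batch is not said. Deviations of same-numbered axil and stem libraries correlated at -0.0361, 0.0231 and 0.00248, and those of other-numbered pairs at -0.120 to 0.120. With 3 libraries per tissue these values cannot settle whether the libraries are paired. The replicate block gave 3231 genes higher and 3646 lower. Without the filter 3257 genes were higher and 3646 lower, and with a filter at 5 FPKM 2590 and 2822. How far genes near the detection limit bound these counts was not tested.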
